A study of Homo sapiens with 6 samples.

Results

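The genes described here are 10 transcriptional outputs and brakes of the ERK pathway, DUSP4, DUSP5, DUSP6, SPRY2, SPRY4, SPRED1, SPRED2, ETV4, ETV5 and PHLDA1. They were chosen by name, with earlier results of these data known. All 10 were found among the 60624 Ensembl gene identifiers of the deposited table. SV-HUC-1 cells are a human bladder lining (urothelial) line made immortal with SV40. The control group was 3 RNA-seq libraries of SV-HUC-1 cells given a blank solution for 3 days. The treated group was 3 libraries of the same line given 2,6-dichloro-1,4-benzoquinone (DCBQ), a byproduct of drinking water disinfection, for 3 days. The labels give no DCBQ concentration. Nor do they say that replicate libraries were grown as separate cultures, so each p-value reflects the spread among these libraries alone, and that spread may be technical.

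ERK is the last kinase of a cascade that runs from growth factor receptors through RAS, RAF and MEK. Active ERK raises the transcription of genes whose products then restrain the same cascade. Dual-specificity phosphatases (DUSPs) remove phosphates from ERK and related kinases. Sprouty (SPRY) and Sprouty-related (SPRED) proteins block the steps between receptor and RAF. ETV4 and ETV5 are ETS-family transcription factors that are made when ERK is active, and their transcripts, with those of DUSP6, SPRY4 and PHLDA1, are widely used as readouts of ERK output. In urothelium this cascade lies downstream of the EGF and FGF receptors. The table holds mRNA levels, and kinase activity was not analysed here.

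The 10 genes did not move as a block. Of the 10, 8 fell, 1 rose and 1 did not pass the test. SPRY4, ETV5 and PHLDA1 fell the most, DUSP5 rose, and DUSP6 had nearly the same level in both groups. Levels are in TPM, a unit scaled for gene length and library total. Differences are DCBQ minus control on log2(TPM + 1), tested with limma over 16734 genes with a mean of at least 1 TPM, and a gene is called when its Benjamini-Hochberg adjusted p is under 0.05. All 10 genes passed the filter on low values. Of all tested genes 52.9% were called, 39.5% lower and 13.4% higher, so a fall alone was common here. A called log2 difference of -1 or lower was seen in 3 of the 10 genes and in 5.45% of all tested genes. The median difference was -0.57 over the 10 genes and -0.21 over all tested genes. In 9 of the 10 genes the control and treated libraries did not overlap, against 61.2% of all tested genes, and in 8 of them the treated libraries were the lower ones, against 45.2%.

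The scale of the table itself bears on small differences. The 13 mitochondrially encoded mRNAs took 16.6% to 17.5% of TPM in control and 23.7% to 24.4% in DCBQ, which lowers the TPM of all other genes. Median-of-ratios scaling, hereafter centred scaling, brings the libraries to a common centre and moved the median of all tested genes from -0.21 to -0.0034. The 10 genes then had 6 lower and 1 higher, with a median of -0.35, where 23.2% of all tested genes were lower and 23.8% higher. With the mitochondrially encoded genes removed and each library rescaled, 7 of the 10 were lower and 1 higher, where 27.7% of all tested genes were lower and 17.2% higher. In such bulk libraries fewer cells of a type and less RNA per cell cannot be told apart. The line's label was checked against markers. The 14 epithelial and urothelial markers summed to 5220 to 5466 TPM in control and 6504 to 6841 in DCBQ, with UPK3A listed at 0 throughout and TP63 at 0.033 and 0.075 TPM on average. Of the 12 tested, 7 were higher and 2 lower, against 13.4% and 39.5% of all tested genes. UPK1B rose 4.15-fold, KRT5 2.59-fold and KRT19 2.21-fold, while KRT17 fell from 817 ± 26 to 407 ± 14 TPM. Fibroblast markers summed to 6.84 to 7.80 TPM in control and 14.8 to 16.6 in DCBQ, nearly all of it COL1A1, with COL1A2, COL3A1, DCN and LUM listed at 0. Leukocyte markers summed to 3.81 to 5.50 and 10.3 to 11.01 TPM, mostly CD68 and CD14, with LYZ listed at 0. Endothelial markers summed to 6.55 to 7.51 and 8.52 to 14.8 TPM, with members in opposite directions: CDH5 was at 4.24 and 10.6 TPM on average and KDR at 2.63 and 0.39 TPM. CD14 and KDR passed the filter on low values only through the group where they were high. The part of these shifts in the results below was not tested.

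**Figure D1:**
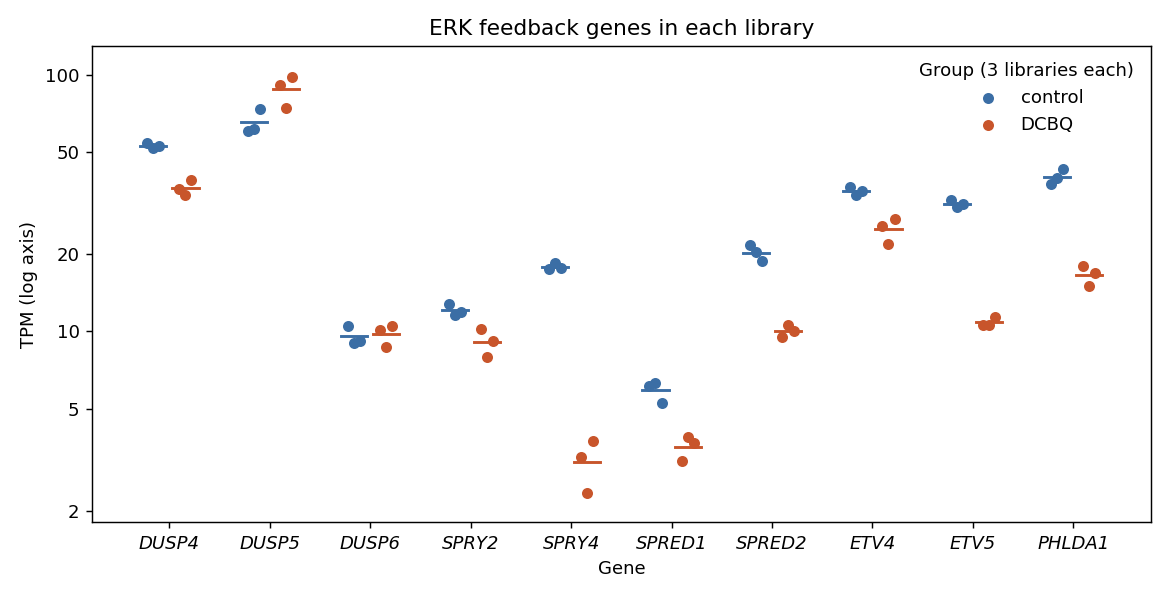
TPM of the 10 ERK feedback genes on a log axis, with each point a library (3 control, 3 DCBQ) and each bar a group mean. The groups overlap only for DUSP6, and SPRY4 shows the widest gap, 17.5 to 18.4 TPM in control against 2.34 to 3.73 TPM in DCBQ.

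Among the phosphatases, 1 fell, 1 rose and 1 did not pass. DUSP4 (chromosome 8, 29333064 to 29350668, minus strand) encodes a nuclear phosphatase of ERK and of the stress kinases JNK and p38. Its level was 54.2, 51.9 and 53.0 TPM in control and 35.8, 34.1 and 39.0 TPM in DCBQ. Every treated library lay below every control library, and DUSP4 fell 1.46-fold (log2 difference -0.54, SE 0.064, limma adjusted p = 0.00022). DUSP5 (chromosome 10, 110497838 to 110511544, plus strand) encodes a nuclear phosphatase selective for ERK. Its level was 60.6, 61.7 and 73.7 TPM in control and 91.8, 74.5 and 98.7 TPM in DCBQ. The highest control and the lowest treated library nearly met, and DUSP5 rose 1.35-fold (log2 difference 0.43, SE 0.11, limma adjusted p = 0.014). That call was lost when DCBQ replicate 1 was left out (limma adjusted p = 0.051), and the difference was larger after centred scaling, at 0.66 (limma adjusted p = 0.0037).

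DUSP6 (chromosome 12, 89347232 to 89353271, minus strand) encodes the cytoplasmic phosphatase of ERK. Its level was 10.5, 9.02 and 9.15 TPM in control and 10.1, 8.67 and 10.5 TPM in DCBQ. The groups overlapped fully, with a log2 difference of 0.02 and a 95% interval of -0.23 to 0.28 (limma adjusted p = 0.87). After centred scaling the difference was 0.24 (limma adjusted p = 0.11). DUSP6 was therefore not called under either scaling. An antisense gene, AC024909.2, shares 1875 exonic bases with DUSP6. It was listed at 0.21 to 0.61 TPM in control and 0.49 to 0.88 TPM in DCBQ, and the use of strand in the counting is not given in the sources used here.

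The summed level of the 3 phosphatase genes overlapped between the groups while its makeup shifted. DUSP4, DUSP5 and DUSP6 summed to 128 ± 7.0 TPM in control and 134 ± 16 TPM in DCBQ (SD, n = 3 per group). The ratio of DUSP5 to DUSP4 within a library, which a single factor applied to the whole library leaves unchanged, went from 1.23 ± 0.14 to 2.43 ± 0.21. Of the TPM of all 10 genes, DUSP5 held 22.4% ± 2.0 in control and 41.4% ± 1.9 in DCBQ (SD, n = 3 per group).

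Both Sprouty genes fell, SPRY4 far more than SPRY2. Sprouty proteins are inhibitors that act between receptor tyrosine kinases and RAF. SPRY4 (chromosome 5, 142310427 to 142326455, minus strand) was at 17.5, 18.4 and 17.7 TPM in control and 3.24, 2.34 and 3.73 TPM in DCBQ. The groups lay far apart, with a 5.76-fold fall (log2 difference -2.22, SE 0.14, limma adjusted p = 8.9e-06), and 0.317% of the tested genes had a lower log2 difference. SPRY2 (chromosome 13, 80335976 to 80340951, minus strand) was at 12.8, 11.6 and 11.9 TPM in control and 10.3, 7.93 and 9.20 TPM in DCBQ. It fell 1.33-fold without overlap of the groups (log2 difference -0.38, SE 0.11, limma adjusted p = 0.02). The SPRY2 call was lost after centred scaling (-0.16, limma adjusted p = 0.32) and without control replicate 1 or DCBQ replicate 2. The ratio of SPRY4 to SPRY2 went from 1.48 ± 0.11 to 0.339 ± 0.0587 (SD, n = 3 per group), so SPRY4 was the more abundant of them in control and the less abundant in DCBQ.

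The antisense gene SPRY4-AS1, which overlaps SPRY4 in position but shares no exonic base with it, was listed at 1.55, 2.37 and 2.19 TPM in control and 0.88, 0 and 0 TPM in DCBQ. It was named after its values were seen and passed the filter on low values only through the control group, so no test is given for it.

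The sequence ahead of a start site is where regulators of such genes can bind, and 3 stretches are shown because they precede genes that fell by different amounts, SPRY4, SPRY2 and SPRED2. They come from RefSeq (GRCh38.p14), which had promoter windows for 6 of the 10 genes (SPRY4, SPRY2, SPRED1, SPRED2, DUSP6 and PHLDA1, not DUSP4, DUSP5, ETV4 or ETV5). Each is written 5′ to 3′ on the gene's strand, and runs from the start of the RefSeq window to its transcript start, or to the first base in a GENCODE 29 exon where that comes earlier. The SPRY4 stretch lies in an intron of longer SPRY4 transcripts. Capitals mark GGAA, the core that ETS-family factors bind, or TTCC where it lies on the other strand.
SPRY4, chr5:142324418-142324497, minus strand, 80 bases: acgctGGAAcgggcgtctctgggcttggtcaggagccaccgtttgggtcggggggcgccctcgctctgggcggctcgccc
SPRY2, chr13:80341127-80341376, minus strand, 250 bases: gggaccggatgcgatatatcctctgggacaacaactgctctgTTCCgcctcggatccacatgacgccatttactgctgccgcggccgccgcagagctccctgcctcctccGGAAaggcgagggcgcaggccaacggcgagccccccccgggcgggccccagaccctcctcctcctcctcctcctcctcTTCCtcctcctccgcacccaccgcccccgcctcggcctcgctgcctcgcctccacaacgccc
SPRED2, chr2:65432638-65432849, minus strand, 212 bases: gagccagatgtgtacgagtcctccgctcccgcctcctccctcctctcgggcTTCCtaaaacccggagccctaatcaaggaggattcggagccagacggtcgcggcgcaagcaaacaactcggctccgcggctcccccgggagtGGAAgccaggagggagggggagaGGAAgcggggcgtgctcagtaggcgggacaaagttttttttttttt
The core was present 3 to 6 times in each of the 9 windows of 300 bases that RefSeq gives for the 6 genes, and 95.4% of 34943 such windows of all genes hold it. Longer motifs were searched on both strands. The extended ETS motif CCGGAAGT, which contains the core, was in 0 of the 9 windows (4.11% of all windows), and the cyclic AMP response element TGACGTCA in 0 (1.84%). The AP-1 motif TGANTCA and the ATF4 composite motif TGATGNAA were each in 1 of the 9 windows (7.72% and 3.62% of all windows), in both cases the downstream SPRED2 window, chr2:65366729-65367028. These matches describe the letters only.

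SPRED1 and SPRED2 both fell. SPRED proteins bring the RAS inhibitor neurofibromin to the membrane. SPRED2 (chromosome 2, 65310851 to 65432637, minus strand) was at 21.6, 20.4 and 18.8 TPM in control and 9.54, 10.6 and 10.01 TPM in DCBQ. Its treated libraries all lay well below the controls, a 2.02-fold fall (log2 difference -0.94, SE 0.087, limma adjusted p = 6.1e-05). SPRED1 (chromosome 15, 38252326 to 38357249, plus strand) was at 6.11, 6.31 and 5.245 TPM in control and 3.11, 3.88 and 3.66 TPM in DCBQ. It was the least abundant of the 10 genes in control and fell 1.66-fold without overlap (log2 difference -0.60, SE 0.13, limma adjusted p = 0.0059). The ratio of SPRED2 to SPRED1 moved 1.21-fold, from 3.45 ± 0.19 to 2.85 ± 0.19 (SD, n = 3 per group). Their summed level was 26.2 ± 1.9 TPM in control and 13.6 ± 0.94 TPM in DCBQ.

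ETV5 fell more than its relative ETV4. ETV5 (chromosome 3, 186046308 to 186110318, minus strand) was at 32.6, 30.5 and 31.4 TPM in control and 10.6, 10.5 and 11.4 TPM in DCBQ. Libraries within a group differed by little beside the gap between the groups, a 2.91-fold fall (log2 difference -1.46, SE 0.072, limma adjusted p = 2.4e-06). ETV4 (chromosome 17, 43527844 to 43579620, minus strand) was at 36.6, 34.2 and 35.2 TPM in control and 25.7, 21.9 and 27.3 TPM in DCBQ. It fell 1.41-fold without overlap (log2 difference -0.49, SE 0.087, limma adjusted p = 0.0018). After centred scaling its difference was -0.25 and no longer called (limma adjusted p = 0.058). The ratio of ETV5 to ETV4 was 0.8922, 0.8915 and 0.8928 in the control libraries and 0.4124, 0.4809 and 0.4164 in the DCBQ libraries. ETV4 shares 68 exonic bases with DHX8, a helicase gene on the other strand, named after its values were seen, which went up from 34.3 ± 1.59 TPM to 46.0 ± 5.35 TPM (limma adjusted p = 0.0052).

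PHLDA1 (chromosome 12, 76025447 to 76033932, minus strand) encodes a small protein with a pleckstrin homology-like domain. It was at 37.6, 39.8 and 42.9 TPM in control and 18.03, 15.01 and 16.8 TPM in DCBQ. The treated libraries lay below the controls by more than the spread within either group, a 2.41-fold fall (log2 difference -1.22, SE 0.086, limma adjusted p = 1.5e-05). After centred scaling the difference was -0.99 and still called (limma adjusted p = 0.00014).

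**Figure D2:**
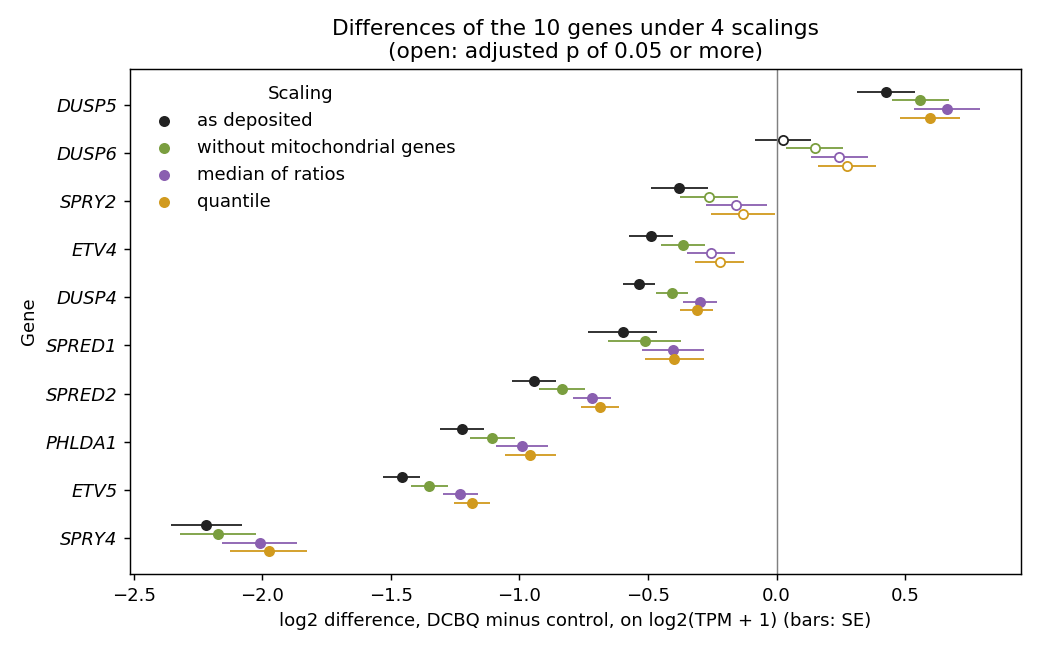
Log2 differences (DCBQ minus control, on log2(TPM + 1), bars are SE) of the 10 genes under 4 scalings, with open points for an adjusted p of 0.05 or more. SPRY4, ETV5, PHLDA1, SPRED2, SPRED1 and DUSP4 stay below 0 and called under all 4 scalings, DUSP5 stays above 0 and called, and SPRY2 and ETV4 lose their calls under some.

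All 6 within-library ratios compared between relatives separated the groups, by sizes that ranged widely. Of all tested genes, 61.2% separated the groups singly, and the share among other gene pairs was not tested. DUSP5 and DUSP4 each separated the groups in opposite directions, so their ratio had to separate as well. The ratio of SPRY4 to SPRY2 changed 4.37-fold, that of ETV5 to ETV4 2.04-fold, and that of DUSP5 to DUSP4 1.97-fold in the other direction. The ratio of DUSP4 to DUSP6 was 5.56 ± 0.36 in control and 3.73 ± 0.19 in DCBQ, and that of DUSP5 to DUSP6 was 6.89 ± 1.15 and 9.03 ± 0.41 (SD, n = 3 per group). A two-sided exact permutation test over the 20 labellings gave p = 0.1 for each of the 6 ratios, and 0.1 after adjustment over them. That is the smallest p that 3 libraries against 3 can give, and any ratio that separates the groups gives it.

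The order of the 10 genes by level changed in its upper and lower parts. In control the order was DUSP5, DUSP4, PHLDA1, ETV4, ETV5, SPRED2, SPRY4, SPRY2, DUSP6 and SPRED1, and no neighbours in it overlapped. In DCBQ it was DUSP5, DUSP4, ETV4, PHLDA1, ETV5, SPRED2, DUSP6, SPRY2, SPRED1 and SPRY4. There ETV5 and SPRED2, SPRED2 and DUSP6, DUSP6 and SPRY2, and SPRED1 and SPRY4 overlapped, so these neighbours did not differ beyond their spread. PHLDA1 and ETV4 changed places without overlap in either group. By group mean SPRY4 went from the seventh place to the last. It still lay above SPRED1 in DCBQ replicate 1 (3.24 against 3.11 TPM) and DCBQ replicate 3 (3.73 against 3.66 TPM). The 10 genes summed to 291 ± 7.6 TPM in control and 213 ± 21 TPM in DCBQ (SD, n = 3 per group).

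Relatives outside the 10 genes did not mostly fall. The shares of all tested genes were 39.5% lower and 13.4% higher as deposited, and 23.2% and 23.8% after centred scaling. Of 12 such relatives 8 passed the filter, and 3 were higher, 1 lower and 4 not called, with a median of 0.12. DUSP9, an ERK-directed phosphatase, was at 2.06, 2.00 and 2.52 TPM in control and 8.05, 7.77 and 5.65 TPM in DCBQ, a 3.26-fold rise from a low level (limma adjusted p = 0.00024). SPRY1, counted as higher, was at 0.93 ± 0.52 TPM in control and 2.32 ± 0.44 TPM in DCBQ and passed the filter on low values only through the DCBQ group. Its call was lost without control replicate 2, DCBQ replicate 2 or DCBQ replicate 3. DUSP1, an immediate early phosphatase of the stress kinases, was the most abundant of the relatives, at 231 ± 3.4 TPM in control and 258 ± 21 TPM in DCBQ (SD, n = 3 per group). Its call (limma adjusted p = 0.0498) was lost in 8 of 17 alternatives. DUSP7 fell from 28.1 ± 1.8 to 23.2 ± 0.91 TPM (limma adjusted p = 0.014), and had a log2 difference of -0.03 after centred scaling and of 0.01 after quantile normalization. DUSP2, DUSP10, DUSP16 and SPRED3 had differences between -0.19 and 0.29 and were not called. After centred scaling 5 of the 8 were higher and 0 lower. As deposited, 1 was higher without control replicate 2 or DCBQ replicate 3, and 0 were lower without control replicate 1.

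Other inhibitors of RAS and ERK signalling mostly fell, with 14 lower, 1 higher and 3 not called of 18 and a median of -0.55. After centred scaling 12 were lower and 2 higher. The shares of all tested genes were 39.5% lower and 13.4% higher as deposited, and 23.2% and 23.8% after centred scaling. ERRFI1, an inhibitor of the EGF receptor that growth factors induce, fell 2.23-fold from 182 ± 3.3 to 81.5 ± 8.3 TPM (limma adjusted p = 8.3e-06). RASAL2, which switches RAS off, fell 2.22-fold to 17.98 ± 3.25 TPM. PEA15, which holds ERK in the cytoplasm, fell 1.51-fold, and the phosphatase gene PTPN12 fell 1.49-fold. PEBP1, the RAF kinase inhibitor protein, was the exception and rose 1.44-fold from 159 ± 4.8 to 229 ± 0.92 TPM.

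Upstream of ERK, ligands and receptors fell more often than they rose, as did all tested genes (39.5% lower, 13.4% higher). After centred scaling those shares of all tested genes were 23.2% and 23.8%. Of 14 tested receptor ligands 9 were lower, 1 higher and 4 not called (median -0.60), and after centred scaling 7 were lower and 1 higher. The EGF receptor ligand genes HBEGF and TGFA fell 5.31-fold and 1.64-fold, NRG1 fell 2.38-fold, and GAS6, a ligand of AXL, fell 2.14-fold. AREG and EREG, also EGF receptor ligand genes and named after their values were seen, were not called. AREG, the most abundant of the ligands, was at 155 ± 6.4 TPM in control and 148 ± 19 TPM in DCBQ (limma adjusted p = 0.52). EREG was at 9.89 ± 0.59 and 9.26 ± 1.7 TPM (limma adjusted p = 0.56). PDGFB fell 1.64-fold. FGF1 and FGF18 (the latter named after its values were seen) are counted as lower but passed the filter on low values only through the control group. FGF1 was at 2.82 ± 0.97 TPM in control and 0.27 ± 0.064 TPM in DCBQ, and FGF18 at 1.58 and 0.56 TPM on average. EPGN was the 1 ligand that rose, from 1.73 ± 0.52 to 5.66 ± 1.7 TPM. Of 14 tested receptors 9 were lower, 0 higher and 5 not called in the limma fit (median -0.36), and after centred scaling 6 were lower and 2 higher. EGFR fell from 233 ± 4.9 to 113 ± 13 TPM, MET 1.67-fold, EPHA2 1.61-fold and AXL 2.90-fold. The 5 not called were ERBB2, ERBB3, FGFR2, FGFR3 and FGFR4. FGFR1 fell from 5.88 ± 0.80 to 4.22 ± 0.59 TPM (limma adjusted p = 0.046), the largest adjusted p of the 9 called lower. As deposited, 6 receptors were lower without control replicate 1, 2 or 3. These FGF receptor and ERBB genes were named after their values were seen.

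Of the cascade genes between receptor and ERK, 31 were tested, and 17 were lower, 1 higher and 13 not called (median -0.28). After centred scaling 7 were lower and 6 higher, shares near those of all tested genes (23.2% and 23.8%). The adaptor gene GAB2 fell 3.45-fold from 11.2 ± 0.11 to 3.26 ± 0.60 TPM and BRAF fell 1.96-fold from 21.7 ± 0.81 to 11.1 ± 1.4 TPM. RPS6KA2, a kinase that ERK activates, fell 5.71-fold from 9.35 ± 0.66 to 1.64 ± 0.15 TPM, and MKNK2, another such kinase, fell 1.84-fold. MAPK3, which encodes an ERK kinase and was named after its values were seen, was at 135 ± 17 TPM in control and 148 ± 3.5 TPM in DCBQ (log2 difference 0.14, limma adjusted p = 0.19), and its difference was 0.38 and called after centred scaling (limma adjusted p = 0.00749). Among 16 tested genes of the parallel JNK and p38 cascades 10 were lower and 2 higher (median -0.33). After centred scaling 5 were lower and 4 higher. The shares of all tested genes were 39.5% lower and 13.4% higher as deposited, and 23.2% and 23.8% after centred scaling. MAPK12, a p38 kinase gene, fell 1.74-fold, MAP3K7 fell 1.58-fold, MAP3K20 1.54-fold and MAP2K7 from 39.3 ± 1.1 to 26.3 ± 1.3 TPM.

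Early genes that ERK and other kinases induce moved in both directions. The shares of all tested genes were 13.4% higher and 39.5% lower as deposited, and 23.8% and 23.2% after centred scaling. Of 19 tested early genes, 11 were higher, 6 lower and 2 not called, with a median of 0.17. After centred scaling 12 early genes were higher and 5 lower. Without control replicate 2, or without DCBQ replicate 3, 7 were higher and 6 lower. FOS rose from 29.3 ± 4.1 TPM to 205 ± 19 TPM, JUN rose 1.39-fold, and EGR1, named after its values were seen, rose 1.42-fold from 485 ± 23 to 687 ± 44 TPM. SRF, which encodes a factor that partners with ETS proteins at early genes, fell 1.74-fold, and CCND1 and FOSL1 of the same list (the latter named after its values were seen) fell, CCND1 from 291 ± 11 to 182 ± 7.7 TPM and FOSL1 1.52-fold. Among 16 tested ETS-family factors besides the ETV genes named above, 5 were higher, 4 lower and 7 not called (median -0.02), and after centred scaling 7 were higher and 4 lower. The number higher was 3 without control replicate 2, control replicate 3, DCBQ replicate 2 or DCBQ replicate 3. ETS1 fell 2.46-fold from 150 ± 8.95 to 61.2 ± 1.6 TPM, ETS2 2.02-fold and FLI1 2.33-fold, while the epithelial factor gene ELF3 rose 2.90-fold. Whether any of these lists differed from the 10 genes was not tested.

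**Figure D3:**
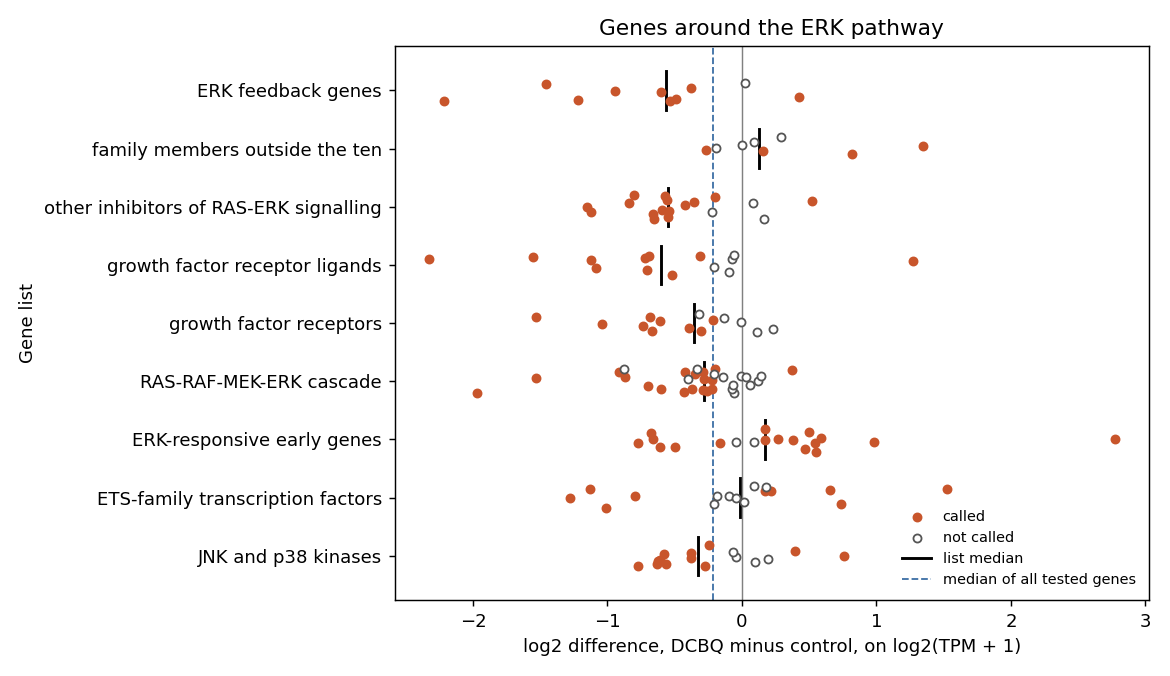
Log2 differences (DCBQ minus control, on log2(TPM + 1)) of the tested genes of 9 lists around the ERK pathway, with filled points for called genes, black bars for list medians and a dashed line for the median of all tested genes. The medians of the ERK feedback genes, the other inhibitors and the receptor ligands lie at -0.57, -0.55 and -0.60, and that of the early genes lies at 0.17.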

How the data were processed

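Poly(A)-selected RNA of 6 SV-HUC-1 libraries was sequenced, 3 control and 3 DCBQ. The authors deposited TPM values for 60624 Ensembl identifiers in 6 columns, each matched to a library by its label and each summing to 1000000, so the depth is unknown and intervals resting on it are left out. Tools named, per the submitters' processing notes, are HISAT2 2.2.1, Trimmomatic 0.38, StringTie 2.1.7, FastQC and DESeq2 1.34.0, on hg38. For their roles, the annotation and strand use, the sources used here give nothing. Gene symbols were matched through an Ensembl identifier table (42013) and GENCODE 29 (596), which also gave coordinates (GRCh38, 1-based).

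Genes with a mean of at least 1 TPM were fitted on log2(TPM + 1) with limma 3.58.1 (eBayes with a variance trend, two-sided, Benjamini-Hochberg over all tested genes) (R 4.3.3), modelling group alone, after a check on simulated data. The simulated data held few changed genes, about as many raised as lowered, and no shift of whole libraries. Scaling was therefore not tested there. Differences on log2(TPM + 1) understate the change of low genes. Folds are ratios of mean TPM. The 10 genes and the 12 other lists were chosen with earlier results of these data known. Named genes are the 10, the 4 of smallest p in each list and list genes called with a difference of at least 1, in all 55. EGR1, FOSL1, MAPK3, SPRY4-AS1, DHX8, AREG, EREG, FGFR1, FGFR2, FGFR3, FGFR4, ERBB2 and ERBB3 lie outside this rule. No column was left out, and no libraries were identical. The 17 alternatives were 2 pseudocounts, 2 filters, 3 scalings, eBayes without trend, a robust eBayes, weights per library, a replicate block, and leaving out each of the 6 libraries.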

Additional observations from a re-analysis of the deposited data

How the results depend on the processing

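DUSP4, SPRY4, SPRED1, SPRED2, ETV5 and PHLDA1 kept their direction and their call in every alternative that tested them (17 each, 16 for SPRED1, which a mean of at least 5 TPM removes). The number of these 10 genes called lower was 8 as deposited, 6 to 8 over all 17 alternatives and 7 to 8 with a library left out. The number called higher, which is DUSP5 alone, was 1 as deposited, 0 with no expression filter (limma adjusted p = 0.059) and 0 to 1 with a library left out. SPRY2 lost its call in 5 alternatives and ETV4 in 2, the median-of-ratios and quantile scalings (limma adjusted p = 0.058 and 0.096). The uncalled difference of DUSP6 ranged from -0.0256 (without DCBQ replicate 3) to 0.0994 (without DCBQ replicate 2) with a library left out, and was also negative without control replicate 2 (-0.0115) or control replicate 3 (-0.0025). DUSP7 was at 0.0091 under quantile normalization. Over all genes, 2247 were higher and 6610 lower as deposited, 3806 and 3979 after quantile normalization, and 3985 and 3878 after median-of-ratios scaling, both of which centre the libraries by construction. With each library left out, 1901 to 2138 were higher and 5700 to 6425 lower.

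Whether the replicate numbers shared by the groups pair the libraries cannot be told from 3 libraries per group. Same-numbered libraries had correlations of -0.04, 0.05 and 0.05 across genes in their deviations from the group means. Differently numbered libraries had correlations of -0.07 to 0.03. With the replicate number as a block, 1 of the 10 genes was higher and 8 were lower, and 2156 genes in all were higher and 6344 lower. The ETS-family list then had 3 higher in place of 5, as it did with eBayes without trend. With no expression filter the early genes had 7 higher in place of 11 and the relatives 1 in place of 3. TPM keeps no depth, so the counting error of low genes such as SPRY1, FGF1 and SPRY4-AS1 is unknown.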

Other observations

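Among the treated libraries, DCBQ replicate 2 had the lowest level of 8 of the 10 genes (DUSP4, DUSP5, DUSP6, SPRY2, SPRY4, ETV4, ETV5 and PHLDA1), while it was the lowest of the 3 for 25.7% of all tested genes. DCBQ replicate 3 had the highest level of 6 of the 10 and was the highest for 32.9% of all tested genes. Among the controls, no library was lowest for more than 5 of the 10. Control replicate 1 had the highest level of 6 of the 10 and was the highest for 37.6% of all tested genes. Without DCBQ replicate 2, 7 of the 10 genes were called lower and 1 higher.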
